A study of Mus musculus with 8 samples.

Results

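Piezo1 and 9 other genes of mechanotransduction, the conversion of mechanical force into cell signals, were followed in RAW264.7 cells on smooth and on structured polyetheretherketone. The 10 genes were taken by symbol from a table of 26848 genes, without regard to any measured value in the rule: the channels Piezo1, Trpv2 and Trpm7, the Hippo pathway genes Lats1, Lats2 and Amotl2, the transcription factor gene Srf and its target Cnn2, and the nuclear envelope genes Lmna and Sun2. RAW264.7 is a mouse macrophage-like cell line, and polyetheretherketone (PEEK) is a rigid polymer used for bone implants. One group of 4 libraries came from cells on smooth PEEK and the other 4 from cells on PEEK with structures at the nanometre and micrometre scale. Both groups are the same line, and the sources used here give no genetic change, stimulus, time in culture or structure size. The titles number all but the first library of each group as biological replicates, and the replicate numbers used here come from the library names instead. No label states that each library was its own culture, so p-values measure the spread between these libraries, which may be technical. In bulk RNA, fewer cells of a type and less RNA per cell cannot be told apart.

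Piezo1 is a cation channel that opens when the membrane is stretched and lets calcium into the cell. Calcium, tension in the actin cytoskeleton and the pull of that cytoskeleton on the nucleus are then read by several systems: the Hippo kinases LATS1 and LATS2, which keep the coactivators YAP and TAZ out of the nucleus, the serum response factor SRF, whose coactivators are released when actin polymerises, and the lamins and SUN proteins of the nuclear envelope. In macrophages, PIEZO1 and the related channels are known for coupling the stiffness and shape of the surroundings to inflammatory activation.

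The libraries held 64479829 to 73098735 count units, where 1 sequenced fragment was read as about 4 units, an inference from low values. On that reading 3 fragments correspond to 0.164 to 0.186 CPM, the count scaled to library size. All 10 macrophage markers were tested and 0 were called, and their summed level was 6119 to 6522 CPM on smooth and 6424 to 6585 CPM on structured PEEK. Markers of other cell types were also detected, and no listed gene of the table was at 0 in all 8 libraries. The 13 measured hepatocyte markers summed to 64.5 to 299 CPM on smooth and 121 to 442 CPM on structured PEEK, and were highest in smooth 1, structured 3 and structured 4. Neutrophil markers summed to 53.6 to 64.3 CPM on smooth and 56.2 to 88.7 CPM on structured PEEK, with 4 of 5 tested genes called higher. Nearly all of the smooth sum was Mmp9, the tested gene that was not called. Mmp9 was at 53.3 to 64.0 CPM on smooth and at 49.0 to 54.1 CPM on structured PEEK. In sum structured 1 stood among the smooth libraries, though its S100a9 level of 1.99 CPM exceeded the smooth range of 0 to 0.0601 CPM. The other structured libraries had 11.7 to 14.3 CPM of S100a9. Skeletal muscle markers summed to 19.3 to 63.6 CPM and 15.2 to 21.8 CPM, with 3 of 12 tested genes called lower. The part of these transcripts in the results below was not tested beyond leaving out the 3 libraries named.

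Of the 10 genes, Piezo1 alone was called: it fell on structured PEEK, and the other 9 did not pass the threshold. The threshold was an edgeR Benjamini-Hochberg adjusted p under 0.05 over all 16006 tested genes. Over all tested genes 3.75% were called, 1.01% higher and 2.75% lower on structured PEEK, and 1 call among 10 genes is no result about the set as a whole beside that share. The log2 fold change, structured minus smooth, was negative for 6 of the 10 and positive for 4, with a median of -0.04 against 0.0056 over all tested genes, of which 48.8% were negative. At an unadjusted edgeR p under 0.05 there were 3 of the 10, against 18.7% of all tested genes. The 4 smooth and the 4 structured libraries did not overlap for 2 of the 10, Piezo1 and Lats1, against 12.2% of all tested genes. All 10 passed the filter on low counts.

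**Figure D1:**
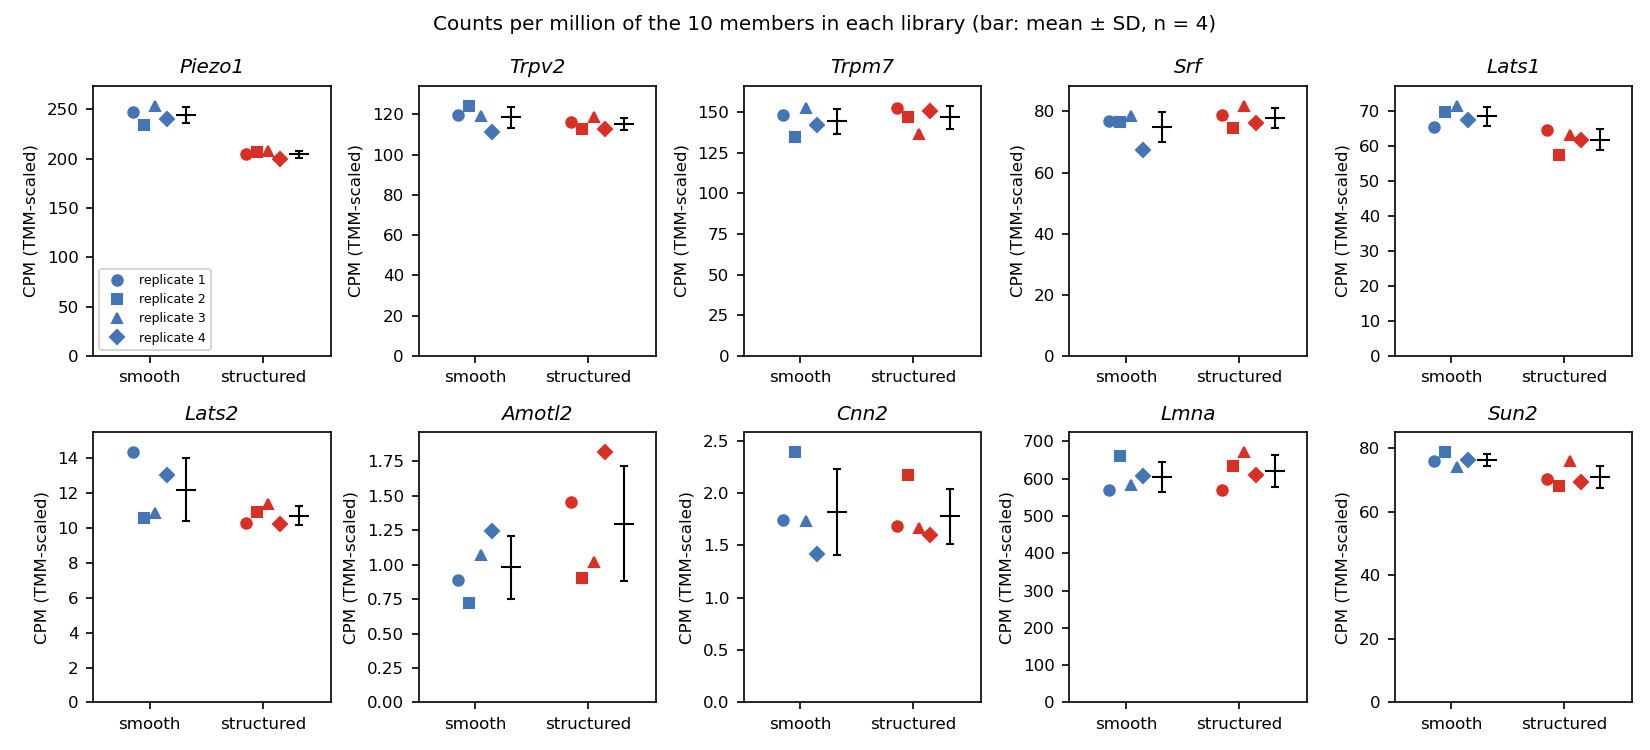
Each panel plots CPM on the y axis, from 0, for 1 gene on smooth (blue) and structured (red) PEEK, with marker shapes for replicates 1 to 4 and a bar for the mean ± SD of 4 libraries. The 4 structured libraries of Piezo1 lie at 199 to 208 CPM, below the 4 smooth libraries at 234 to 253 CPM.

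Piezo1 (ENSMUSG00000014444, chromosome 8, 122481698 to 122551329, minus strand in the deposited table) was at 247, 234, 253 and 240 CPM in smooth 1 to 4. It was at 205, 206, 208 and 199 CPM in structured 1 to 4. Every structured library was below every smooth library, including structured 1, the lowest of its group in neutrophil markers. Smooth 1, high in hepatocyte markers, stood with the other smooth libraries. The part of neutrophil or hepatocyte transcripts in the Piezo1 difference was not tested beyond leaving out libraries. The means were 244 ± 8.22 and 205 ± 3.62 CPM (SD, n = 4 each). The log2 fold change was -0.25 ± 0.04 (SE, 95% interval -0.33 to -0.17), so that Piezo1 fell by 16.1% (edgeR adjusted p = 0.0076). Among the 440 genes called lower this change was near the middle: their median log2 fold change was -0.24, and 190 of them had a lower value than Piezo1. Removing from every library the dependence on GC content and transcript length gave a log2 fold change of -0.11 and an edgeR adjusted p of 0.112. Without smooth 1, structured 3 and structured 4 together it was -0.24, with an edgeR adjusted p of 0.0758 on 3 smooth and 2 structured libraries.

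The Piezo1 locus overlaps Ctu2, a tRNA modification gene on the opposite strand, over 2441 bases, and Ctu2 had a mean of 7.64 FPKM, a level scaled for transcript length and library depth. It also shares 69632 bases with Gm20388, annotated as protein coding on the opposite strand and absent from the deposited table. The strand setting of the authors' counting is not given in the sources used here, so reads in those overlaps cannot be assigned with certainty. The proximal promoter of Piezo1 is shown because this is the gene that was called. The stretch is chr8:122551310-122551449 on the minus strand, from RefSeq on GRCm38.p6, 120 bases before the start of transcription and the first 20 after it, with capitals on a GGGCGG, the core of the GC box bound by the SP family of transcription factors.
Piezo1: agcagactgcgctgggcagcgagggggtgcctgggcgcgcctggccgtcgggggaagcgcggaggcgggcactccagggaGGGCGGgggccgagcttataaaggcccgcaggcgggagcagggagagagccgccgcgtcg
The match starts 40 bases before the transcription start, and 35.7% of 32851 mouse promoter windows of 300 bases hold GGGCGG on either strand. The whole 300-base window of Piezo1 holds neither the CArG box, the palindromic motif read by SRF, nor CATTCC on either strand, the motif read by the TEAD partners of YAP and TAZ. Such matches are descriptions of the sequence and not measured sites.

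Trpv2 and Trpm7, the other channels of the set, differed by less than the spread between libraries. Trpv2 (ENSMUSG00000018507, chromosome 11, 62574486 to 62600515, plus strand), a calcium-permeable channel involved in phagocytosis by macrophages, was at 120, 124, 119 and 111 CPM in smooth 1 to 4 and at 116, 113, 119 and 113 CPM in structured 1 to 4. The groups overlapped, and its log2 fold change was -0.04 ± 0.04 (95% interval -0.13 to 0.05, edgeR adjusted p = 0.650). Trpm7 (ENSMUSG00000027365, chromosome 2, 126791565 to 126876230, minus strand), a channel for magnesium and calcium fused to a kinase, was at 148, 135, 153 and 142 CPM and at 152, 147, 137 and 151 CPM. Here too the groups overlapped, with a log2 fold change of 0.02 ± 0.05 (95% interval -0.08 to 0.13, edgeR adjusted p = 0.865). The value of -0.25 found for Piezo1 lay outside both intervals.

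The FPKM ratio of Piezo1 to Trpv2, which needs no scaling between libraries, was 0.933, 0.853, 0.961 and 0.973 in smooth 1 to 4. In structured 1 to 4 it was 0.797, 0.828, 0.789 and 0.799. All 4 structured ratios lay below all 4 smooth ratios, by 0.21 in the mean log2 ratio. The two-sided exact permutation test gave p = 0.0286, the smallest that 4 against 4 libraries allow, and 0.114 after Benjamini-Hochberg adjustment over the 4 ratios tested, so the difference did not pass.

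Of 24 mechanosensitive channels and partner proteins listed, 17 were tested. Of these, 1 was called lower (Piezo1) and 0 were called higher, against 2.75% and 1.01% of all tested genes. The median log2 fold change of the 17 was -0.15 against 0.0056 over all tested genes, and 14 of the 17 values were negative. At an unadjusted edgeR p under 0.05 there were 5 lower and 0 higher of the 17, against 18.7% of all tested genes in either direction. Tmem63a, a channel gated by membrane tension, was at 28.9 ± 1.46 and 24.7 ± 1.5 CPM in groups that did not overlap, with a log2 fold change of -0.23 ± 0.06 and an edgeR adjusted p of 0.0612. Pkd2, a calcium-permeable polycystin, was at 29.0 ± 2.34 and 24.9 ± 1.97 CPM (edgeR adjusted p = 0.122). Mdfic, an auxiliary subunit of PIEZO channels, was at 63.2 ± 2.2 and 57.0 ± 3.51 CPM (edgeR adjusted p = 0.141). Kcnn4, the calcium-activated potassium channel, was at 180 ± 9.32 and 180 ± 9.17 CPM. Piezo2, the paralog of Piezo1 in sensory neurons, was close to the level of 3 fragments, at 0.331 ± 0.148 and 0.227 ± 0.0972 CPM, and Trpv4 was at 1.52 ± 0.582 and 1.52 ± 0.394 CPM. Trpc6 was not analysed here.

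Downstream of calcium entry, 2 of 24 tested genes were called lower on structured PEEK and 0 higher, against 2.75% and 1.01% of all tested genes. The 2 called genes encode inositol trisphosphate receptors, which release calcium from the endoplasmic reticulum. Itpr3 was at 205, 222, 219 and 221 CPM in smooth 1 to 4 and at 173, 177, 185 and 175 CPM in structured 1 to 4, with a log2 fold change of -0.29 ± 0.04 (edgeR adjusted p = 0.0069). Itpr2 was at 54.7, 55.8, 57.4 and 54.0 CPM and at 48.5, 46.9, 47.2 and 48.0 CPM, with a log2 fold change of -0.22 ± 0.04 (edgeR adjusted p = 0.0203). In both genes every structured library was below every smooth one. The third receptor, Itpr1, had a log2 fold change of 0.05 ± 0.06 (edgeR adjusted p = 0.750). After removal of the GC and length trend the values were -0.15 for Itpr3 (edgeR adjusted p = 0.132) and -0.11 for Itpr2 (edgeR adjusted p = 0.161). Leaving out smooth 2, smooth 3, structured 2 or structured 4 also ended the call of Itpr2, where the edgeR adjusted p reached 0.0701. So did all 4 limma fits on FPKM (adjusted p from 0.0606 to 0.0970), and leaving out the 3 libraries high in hepatocyte markers (edgeR adjusted p = 0.115).

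Stim1, the calcium sensor of the endoplasmic reticulum, was at 34.5 ± 1.78 and 30.4 ± 1.80 CPM without passing (edgeR adjusted p = 0.106). The list's median log2 fold change was -0.03, and 8 of its 24 tested genes were lower at an unadjusted edgeR p under 0.05, a threshold that 18.7% of all tested genes passed in either direction.

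**Figure D2:**
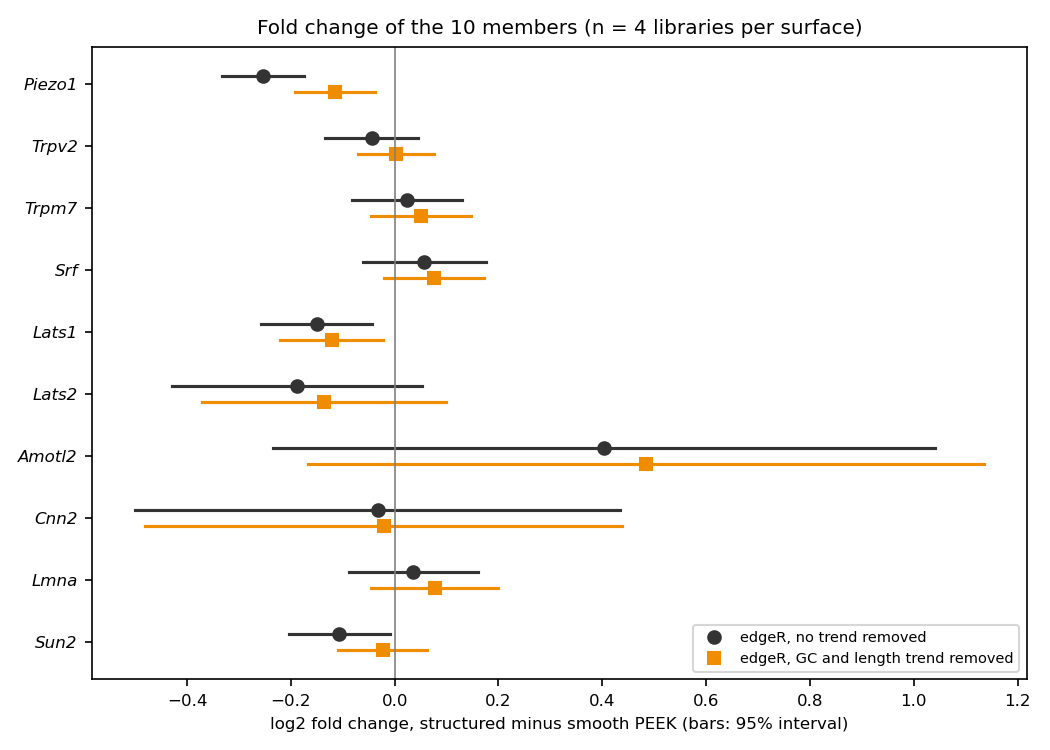
The log2 fold change of each gene, structured minus smooth, is on the x axis with its 95% interval, from edgeR without (black circles) and with (orange squares) removal of the GC and length trend. Piezo1 moves from -0.25 to -0.11 between the fits. The intervals of Piezo1, Lats1 and Sun2 lie below 0 without the removal. With it those of Piezo1 (-0.19 to -0.04) and Lats1 (-0.22 to -0.02) still do, and that of Sun2 (-0.11 to 0.06) does not. These intervals are not adjusted for the number of genes. The interval of Amotl2 is the widest of the 10, from -0.23 to 1.04 without the removal.

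No Hippo gene passed the threshold. Lats1 (ENSMUSG00000040021, chromosome 10, 7681214 to 7716460, plus strand), a kinase that phosphorylates YAP and TAZ, was at 65.4, 69.7, 71.4 and 67.4 CPM in smooth 1 to 4. It was at 64.5, 57.5, 63.1 and 61.8 CPM in structured 1 to 4. The groups did not overlap, but the highest structured library, structured 1, lay within 1 CPM of the lowest smooth library, smooth 1. The log2 fold change was -0.15 ± 0.05 (95% interval -0.26 to -0.04), with an unadjusted edgeR p of 0.010 and an adjusted p of 0.116. Over 25 alternative analyses its adjusted p ran from 0.0511 to 0.309.

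Lats2 (ENSMUSG00000021959, chromosome 14, 57689662 to 57746123, minus strand), the related kinase and itself a target gene of YAP, was at 14.3, 10.6, 10.8 and 13.03 CPM on smooth and at 10.3, 10.9, 11.4 and 10.2 CPM on structured PEEK. Smooth 1 and 4 were the high libraries, and smooth 2 and 3 lay within the structured range. The Lats2 locus shares 56442 bases with Gm49361, annotated as protein coding on the same strand and absent from the deposited table. Reads there cannot be assigned with certainty. The log2 fold change of Lats2 was -0.19 ± 0.11 (95% interval -0.43 to 0.05, edgeR adjusted p = 0.405). The FPKM ratio of Lats2 to Lats1 was 0.229, 0.159, 0.159 and 0.202 on smooth and 0.167, 0.198, 0.189 and 0.173 on structured PEEK. Those ranges overlapped, and the mean log2 ratio differed by -0.03 (exact permutation test, two-sided p = 0.886).

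Amotl2 (ENSMUSG00000032531, chromosome 9, 102716672 to 102733418, plus strand), an angiomotin family protein that holds YAP in the cytoplasm, was the least abundant of the 10. It was at 0.886, 0.721, 1.07 and 1.25 CPM on smooth and at 1.46, 0.900, 1.02 and 1.81 CPM on structured PEEK. Structured 1 and 4 were above all smooth libraries and structured 2 and 3 were among them. These values rest on 51 to 117 count units per library, and the log2 fold change of 0.40 ± 0.29 had a 95% interval from -0.23 to 1.04 (edgeR adjusted p = 0.525), so that changes from -15.0% to 106% lay inside it. The deposited table lists 3 transcripts for Amotl2, and 0 of them are annotated as protein coding in GENCODE M21, where the gene has 14 transcripts of which 9 are coding.

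The promoters of Lats2 and Amotl2 are shown because both genes serve as readouts of YAP and TEAD. Capitals mark CATTCC, or its reverse complement, in the 120 bases before and 20 bases after the start in RefSeq on GRCm38.p6. The stretch of Amotl2 is chr9:102717684-102717823 on the plus strand, with the match starting 65 bases before the start. That of Lats2 is chr14:57746104-57746243 on the minus strand, with the match starting at base 5 of the transcript.
Amotl2: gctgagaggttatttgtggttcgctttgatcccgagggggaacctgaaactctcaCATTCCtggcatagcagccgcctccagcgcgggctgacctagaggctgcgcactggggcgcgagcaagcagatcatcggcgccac
Lats2: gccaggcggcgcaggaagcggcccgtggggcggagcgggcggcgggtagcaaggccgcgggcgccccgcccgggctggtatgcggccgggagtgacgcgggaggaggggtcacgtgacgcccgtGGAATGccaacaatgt
CATTCC occurs on either strand in 14.7% of the 32851 promoter windows of 300 bases, and in at least 1 window of 16.6% of genes. It was found for 8 of the 16 listed YAP and TEAD target genes with a window, among them Ankrd1, Axl and Ccn1, and for 3 of the 10 genes described here, Amotl2, Lats2 and Trpv2. Lats2 had it at start site 1 of 2 alone, and Trpv2 at start site 3 of 3 alone.

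Of 28 listed Hippo kinases, adaptors and effectors, 24 were tested and 0 were called by edgeR, against 3.75% of all tested genes. At an unadjusted p under 0.05 there were 1 higher and 2 lower of the 24 (18.7% of all tested genes). The list had a median log2 fold change of -0.04. Among the most abundant by FPKM, Mob1a, a coactivator of LATS kinases, was at 259 ± 13.3 and 268 ± 5.82 CPM, and Nf2, the merlin tumour suppressor, at 199 ± 5.67 and 200 ± 3.11 CPM. Stk4, the MST1 kinase, was at 134 ± 1.82 and 142 ± 3.19 CPM in groups that did not overlap (edgeR adjusted p = 0.194). The effectors were low. Yap1 was at 0.238 ± 0.128 and 0.234 ± 0.0983 CPM, Wwtr1, which encodes TAZ, at 1.26 ± 0.458 and 1.33 ± 0.498 CPM, and Tead1 at 1.00 ± 0.284 and 0.985 ± 0.0919 CPM. Tead2, Tead3 and Tead4 were too low to test.

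Of 22 YAP and TEAD target genes, 15 were tested and 0 were called by edgeR, against 3.75% of all tested genes. At an unadjusted p under 0.05 there were 0 higher and 2 lower of the 15 (18.7% of all tested genes). The list had a median log2 fold change of -0.12. The standard readouts were at or under the level of 3 fragments: Ccn1 was at 0.147 ± 0.0439 and 0.157 ± 0.117 CPM, and Ccn2 and Ankrd1 were too low to test. The most abundant members were Myof, a membrane repair protein, at 81.1 ± 5.09 and 79.0 ± 4.91 CPM, and Gadd45b, a stress-response gene, at 10.2 ± 1.07 and 10.03 ± 0.554 CPM, ranked by FPKM. A difference in Ccn1, Ccn2 or Ankrd1 was not detectable at this depth. Foxf2 was not analysed here.

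Srf and Cnn2 did not pass the threshold, while 3 other genes of the SRF list were called lower. Srf (ENSMUSG00000015605, chromosome 17, 46548329 to 46556175, minus strand), the transcription factor itself, was at 77.0, 76.5, 78.5 and 67.5 CPM in smooth 1 to 4. In structured 1 to 4 it was at 78.9, 74.6, 81.8 and 76.3 CPM. Only smooth 4 stood below the structured range, and the log2 fold change was 0.06 ± 0.05 (95% interval -0.06 to 0.18, edgeR adjusted p = 0.653). Cnn2 (ENSMUSG00000004665, chromosome 10, 79988584 to 79996062, plus strand), the actin-binding calponin of non-muscle cells, was at 1.74, 2.39, 1.74 and 1.41 CPM on smooth and at 1.69, 2.17, 1.66 and 1.6 CPM on structured PEEK. The second library was the highest of each group, and the log2 fold change was -0.03 ± 0.21 (95% interval -0.50 to 0.43, edgeR adjusted p = 0.962).

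The promoters of Srf and Cnn2 are shown because both carry the CArG box, SRF's own motif. Capitals mark it in the 120 bases before and 20 after the start in RefSeq on GRCm38.p6. For Srf the stretch is chr17:46556143-46556282 on the minus strand, with matches starting 82 and 62 bases before the start, and for Cnn2 it is chr10:79988480-79988619 on the plus strand, with a match 56 bases before it.
Srf: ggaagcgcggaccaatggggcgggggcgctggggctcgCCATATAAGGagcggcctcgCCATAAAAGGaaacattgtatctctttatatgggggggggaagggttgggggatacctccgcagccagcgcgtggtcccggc
Cnn2: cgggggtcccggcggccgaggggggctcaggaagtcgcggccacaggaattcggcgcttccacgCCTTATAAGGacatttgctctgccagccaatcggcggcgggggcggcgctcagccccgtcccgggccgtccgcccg
The CArG box is found in 1.63% of the 32851 promoter windows and for 1.81% of genes, and in 7 of the 26 genes of the SRF list that have a window: Actg1, Cnn2, Egr2, Fhl2, Myl9, Srf and Vcl. Of these 7, Actg1 was called, Srf, Cnn2, Egr2 and Vcl were tested and not called, and Fhl2 and Myl9 were too low to test.

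Among 28 tested genes of the SRF list, 3 were called lower and 0 higher, against 2.75% and 1.01% of all tested genes. The median log2 fold change of the list was -0.08. At an unadjusted edgeR p under 0.05, 11 of its genes were lower and 0 higher, against 18.7% of all tested genes in either direction. Mrtfa, the coactivator that leaves monomeric actin to join SRF in the nucleus, was at 79.5, 74.6, 81.2 and 78.2 CPM on smooth and at 67.4, 61.4, 61.5 and 62.8 CPM on structured PEEK. The groups were apart by more than their spread, with a log2 fold change of -0.31 ± 0.05 (edgeR adjusted p = 0.0098). It was also called after trend removal, at -0.22 (edgeR adjusted p = 0.0371), and in each of the 8 analyses that left out 1 library. It lost its call in 2 settings. Without the 3 libraries high in hepatocyte markers its edgeR adjusted p was 0.0817. With the trend removed and the replicate number as a block the edgeR adjusted p was 0.0654. Mrtfb, the related coactivator, was at 27.6 ± 3.08 and 22.2 ± 1.70 CPM (log2 fold change -0.31 ± 0.08, edgeR adjusted p = 0.067).

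The other called genes of the list encode the actin cytoskeleton. Tpm3, a tropomyosin that lines actin filaments, was at 544 ± 17.8 and 473 ± 17.1 CPM (log2 fold change -0.20 ± 0.04, edgeR adjusted p = 0.0194). Actg1, cytoplasmic gamma actin, was at 1466 ± 74.2 and 1282 ± 47.1 CPM (log2 fold change -0.19 ± 0.04, edgeR adjusted p = 0.0294). Both kept their call after trend removal, at -0.23 and -0.22. Without a filter on low counts both lost it (edgeR adjusted p = 0.058 for Tpm3 and 0.0842 for Actg1). Tpm3 also lost it without the 3 libraries high in hepatocyte markers (edgeR adjusted p = 0.0724) and by limma on unfiltered FPKM, and Actg1 in all 4 limma fits on FPKM (adjusted p from 0.0554 to 0.143). Near copies of both genes, Tpm3-rs7 and Actg-ps1, are in the table, so some reads may be shared between them. Leaving out smooth 2, structured 1, structured 2 or structured 4 ended the call of either gene, and leaving out smooth 3 ended that of Actg1. Actb, cytoplasmic beta actin, was at 4028 ± 193 and 3582 ± 187 CPM without passing (log2 fold change -0.17 ± 0.04, edgeR adjusted p = 0.0523), and after trend removal it passed, at -0.21 (edgeR adjusted p = 0.0234). Smooth muscle targets of SRF were low in these cells, with Tagln at 0.269 ± 0.158 and 0.285 ± 0.113 CPM and Acta2 at 2.88 ± 0.538 and 2.86 ± 0.277 CPM. The 8 smooth muscle markers summed to 7.96 to 10.3 CPM on smooth and 6.64 to 8.22 CPM on structured PEEK.

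**Figure D3:**
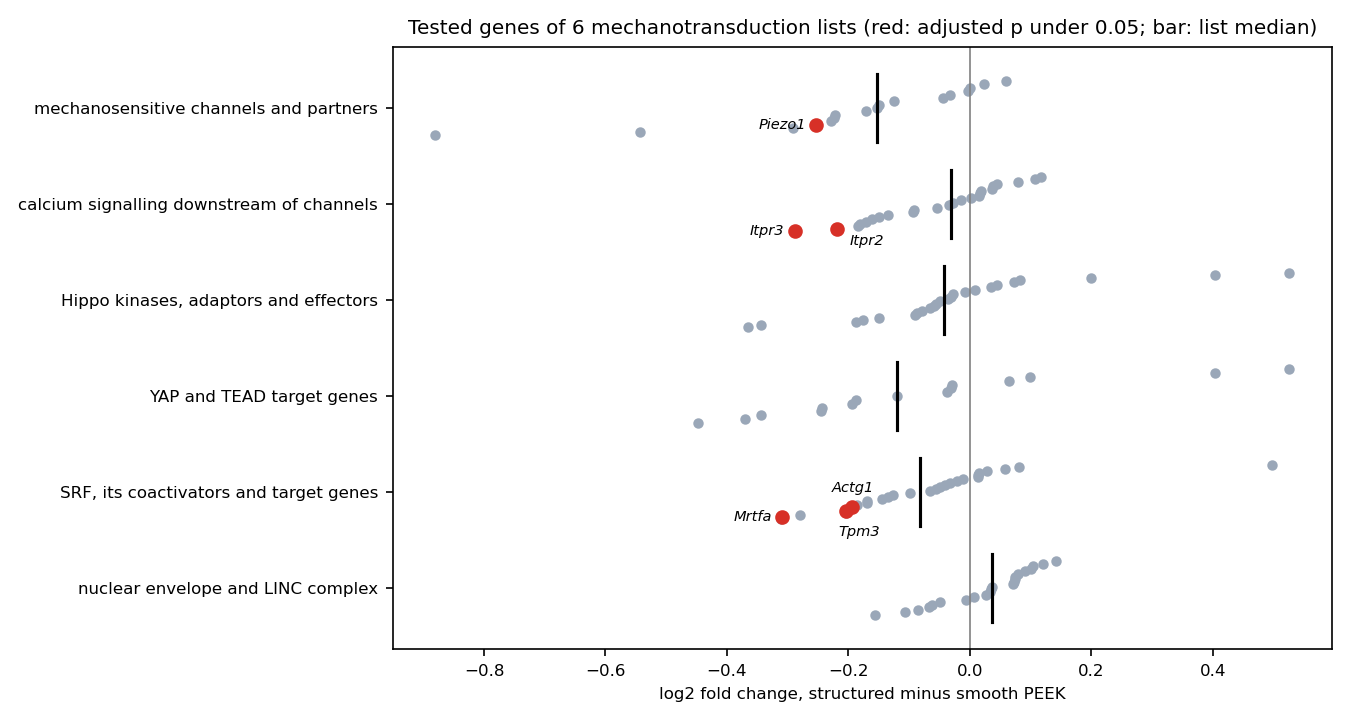
Each point is a tested gene of 1 of 6 lists, with its log2 fold change, structured minus smooth, on the x axis. Red points with names are the 6 genes past the edgeR threshold and black bars are list medians, which run from -0.15 for the channels to 0.04 for the nuclear envelope.

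Neither Lmna nor Sun2 passed the threshold. Lmna (ENSMUSG00000028063, chromosome 3, 88480147 to 88503335, minus strand), which encodes lamins A and C, the A-type lamins that set the stiffness of the nucleus, was at 569, 661, 582 and 608 CPM in smooth 1 to 4. In structured 1 to 4 it was at 569, 633, 670 and 609 CPM. The groups covered nearly the same range, and the log2 fold change was 0.04 ± 0.06 (95% interval -0.09 to 0.16, edgeR adjusted p = 0.813). Sun2 (ENSMUSG00000042524, chromosome 15, 79724070 to 79742534, minus strand), the inner nuclear membrane protein that links lamins to the cytoskeleton, was at 76.1, 78.6, 74.1 and 76.4 CPM on smooth and at 70.3, 68.0, 75.8 and 69.4 CPM on structured PEEK. Structured 3 lay among the smooth libraries and the other 3 structured libraries below them. Its log2 fold change was -0.11 ± 0.04 (95% interval -0.20 to -0.01), with an unadjusted edgeR p of 0.0360 and an adjusted p of 0.225. Trend removal gave -0.02.

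The FPKM ratio of Lmna to Lmnb1, the A-type over the B-type lamin gene, was 1.24, 1.35, 1.21 and 1.33 on smooth and 1.22, 1.41, 1.35 and 1.17 on structured PEEK. The mean log2 ratio differed by 0.0049 (exact permutation test, two-sided p = 0.914). The ratio of Sun2 to its paralog Sun1 was 1.51, 1.47, 1.47 and 1.597 on smooth and 1.45, 1.40, 1.52 and 1.51 on structured PEEK, a difference of -0.04 in the mean log2 ratio (exact permutation test, two-sided p = 0.371). Both sets of ratios overlapped between the surfaces.

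**Figure D4:**
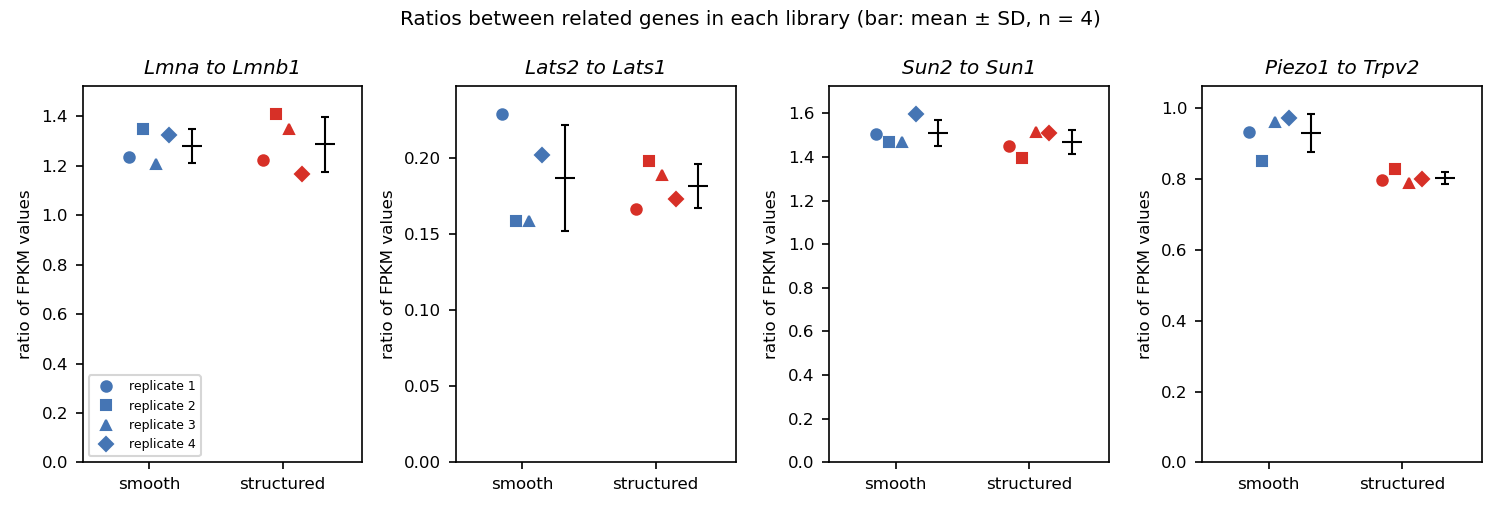
Each panel plots the ratio of the FPKM values of 2 related genes, from 0 on the y axis, in each smooth (blue) and structured (red) library, with bars for the mean ± SD of 4 libraries. Only the ratio of Piezo1 to Trpv2 separates the surfaces, at 0.853 to 0.973 on smooth and 0.789 to 0.828 on structured PEEK.

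Of the 22 tested genes of the nuclear envelope and of the LINC complex, which joins it to the cytoskeleton, 0 were called by edgeR. The share called over all tested genes was 3.75%. At an unadjusted p under 0.05 there were 3 higher and 3 lower of the 22, against 18.7% of all tested genes. The median log2 fold change of the list was 0.04. Lbr, the lamin B receptor, was at 179 ± 4.28 and 191 ± 4.40 CPM (edgeR adjusted p = 0.179). Tmpo, which encodes lamina-associated polypeptide 2, was at 350 ± 3.15 and 369 ± 11.5 CPM (edgeR adjusted p = 0.259). Both were higher on structured PEEK, with all libraries of 1 surface above those of the other. Tpr was likewise separated but lower, at 411 ± 10.1 and 388 ± 9.10 CPM (edgeR adjusted p = 0.196). Counting Tpr, 3 of 22 members were separated in this way, beside 12.2% of all tested genes. Syne1, nesprin 1, was at 72.0 ± 4.12 and 64.6 ± 2.54 CPM (edgeR adjusted p = 0.116). Syne3, nesprin 3, was at 77.9 ± 3.04 and 83.7 ± 4.07 CPM, with a log2 fold change of 0.10 ± 0.05 (edgeR adjusted p = 0.264), and passed after trend removal, at 0.19 (edgeR adjusted p = 0.0474). Banf1, which tethers DNA to the envelope, was with Lmna the most abundant gene of the list by FPKM, at 163 ± 11.2 and 172 ± 5.16 CPM.

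Per length, the 10 genes spanned a wide range of levels. Mean FPKM over the 8 libraries was 98.3 for Lmna, above 97.1% of tested genes, then 24.7 for Srf, 24.4 for Trpv2, 21.1 for Piezo1, 12.7 for Sun2, 12.1 for Trpm7 and 8.35 for Lats1. Lats2 at 1.54, Cnn2 at 0.682 and Amotl2 at 0.168 FPKM were the low members, and Amotl2 was above only 12.95% of tested genes. Neighbours in this order were apart in every library except for 3 pairs whose ranges overlapped. Srf was above Trpv2 in 1 of 4 smooth and 4 of 4 structured libraries. Sun2 was above Trpm7 in 4 of 4 smooth libraries, with ranges apart, and in 1 of 4 structured libraries. Trpv2 was above Piezo1 in 8 of 8 libraries, with ranges that overlapped on smooth PEEK (Piezo1 at 22.0 to 23.7 FPKM, Trpv2 at 23.0 to 25.8 FPKM) and were apart on structured PEEK (18.8 to 19.7 against 23.3 to 24.9 FPKM).

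Fold changes between the surfaces depended on transcript length and GC content over all genes. In 10 equal bins by the length of the longest transcript, the median log2 fold change went from 0.06 in the shortest to -0.06 in the longest, transcripts of at least 6256 bases, which hold Piezo1 (8219 bases), Lats1 (7209) and Trpm7 (7107). In 10 equal bins by GC content it was 0.03 in the lowest and -0.04 in the highest, transcripts of at least 57.6% GC, which hold Srf (64.4%) and Piezo1 (59.0%). Piezo1 is in the last bin of each, and its log2 fold change of -0.25 lay below the interquartile range of both, -0.18 to 0.04 by length and -0.18 to 0.10 by GC content. With the trend with GC alone removed it was -0.21 (edgeR adjusted p = 0.023) and with length alone -0.18 (edgeR adjusted p = 0.018), so among these 3 fits the call ended where both were removed together. In that last fit Piezo1 was at 228, 224, 240 and 238 CPM in smooth 1 to 4 and at 209, 222, 211 and 216 CPM in structured 1 to 4. The groups still did not overlap, but structured 2 came within 2 CPM of smooth 2. Over all genes 2.53% were called in that fit, and 0 of the 10.

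**Figure D5:**
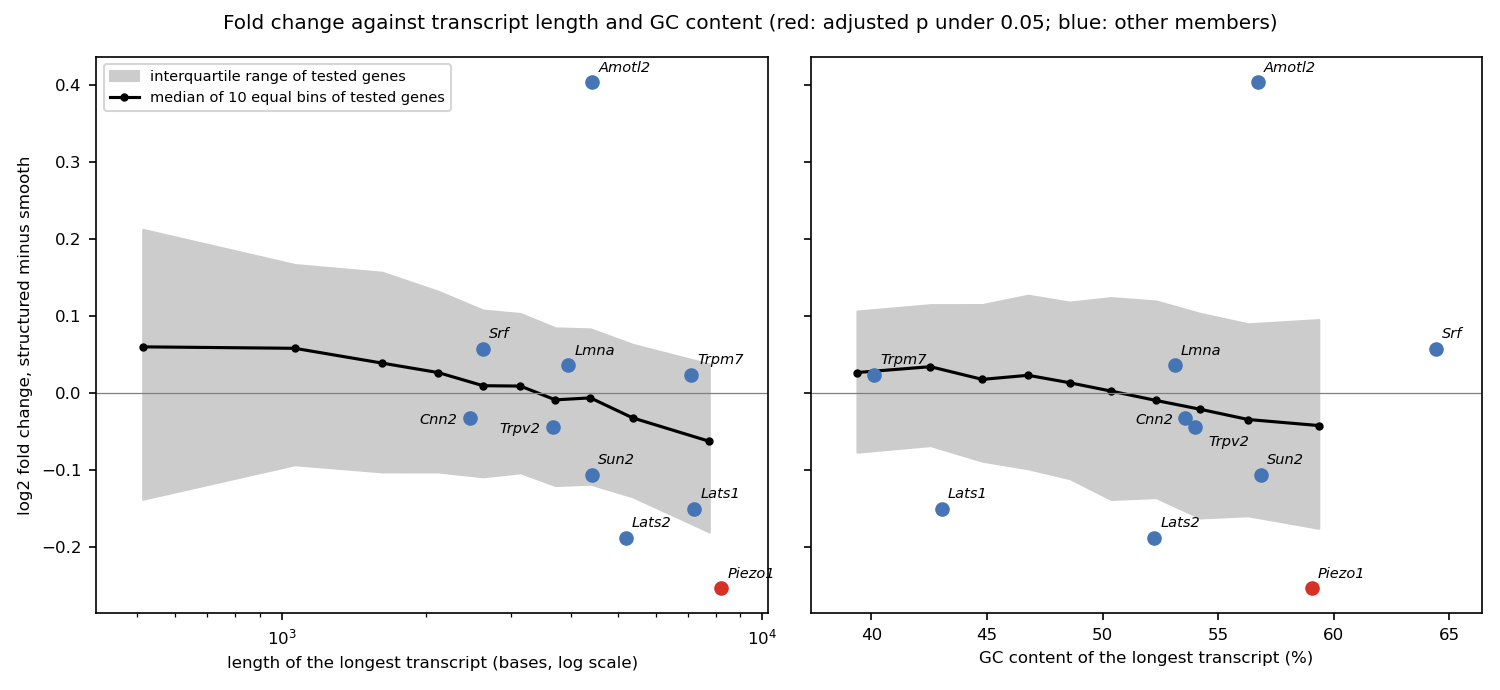
The log2 fold change, structured minus smooth, is plotted against the length of the longest transcript (left, log axis) and its GC content (right). The black line joins the medians of 10 equal bins of tested genes, the grey band is their interquartile range, and the labelled points are the 10 genes, of which Piezo1 (red) and Lats2, at -0.19, lie below the band in both panels.

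Among 6550 tested genes with a mean of at least 5 FPKM, those whose log2 CPM went most closely with Piezo1 over the 8 libraries were Ankrd11, a chromatin regulator (Pearson r = 0.993), Mast2, a microtubule-associated kinase (r = 0.989), and Prrc2a, an RNA-binding protein (r = 0.987). Each r is a description that includes the difference between the surfaces. Their longest transcripts had 8481, 5723 and 6888 bases at 54.7%, 55.6% and 60.6% GC, against 8219 bases at 59.0% GC for Piezo1. The log2 fold changes were -0.21 for Ankrd11, -0.30 for Mast2 and -0.19 for Prrc2a. Mast2 kept its call after trend removal, at -0.20 (edgeR adjusted p = 0.0189), while Ankrd11 (edgeR adjusted p = 0.145) and Prrc2a (edgeR adjusted p = 0.207) did not. The genes most opposite to Piezo1 were Snrpg (r = -0.976), Mcat (r = -0.972) and Ppil1 (r = -0.971), with transcripts of 1055, 1917 and 1476 bases at 46.4%, 58.9% and 53.0% GC. Mcat has a shorter transcript than Piezo1 at a similar GC content, and its log2 fold change was 0.31. The part of length or GC content in these correlations was not tested.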

How the data were processed

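RNA from 4 smooth and 4 structured libraries was sequenced as read pairs of 150 bases from a strand-marked library of messenger RNA with molecular identifiers, per the labels' protocols. The submitters' processing notes name cutadapt 1.9, an adapter trimmer, and HISAT2 2.2.1, an aligner. How reads were counted, on which strand and on which annotation and build, and whether identifiers were used, is not given in the sources used here. For each gene and library the authors deposited 1 estimated count as a whole number, and low values pile up at multiples of 4 (4 occurs 8018 times, 3 occurs 3344 times), so 1 fragment was read as 4 units. The authors also deposited FPKM values, per the file headers. Positions are as the table gives them; 24140 of 26779 genes matched GENCODE M21 exactly.

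edgeR 4.0.16 under R 4.3.3 tested structured minus smooth on all 8 libraries: filterByExpr with a minimum count of 10 (16006 genes tested), TMM scaling, and a two-sided quasi-likelihood F test with Benjamini-Hochberg adjustment at 0.05. CPM is the count over the TMM-scaled library size. GC content and length came from the longest GENCODE M21 transcript of 99.9% of tested genes, and the trend was removed with spline offsets per library. The step was tested on simulated counts that held a GC trend and no length trend, so removal of a length trend was not tested. Alternatives used limma 3.58.1, DESeq2 1.42.0, other scalings and filters, and each library left out; 3 of them (GC alone, length alone, 3 libraries left out together) were chosen after seeing the data. Floors cover counting error alone. Figures used matplotlib 3.10.9.

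The 10 genes, 7 pathway lists and 7 marker lists were chosen with earlier results of these data known; 1 pathway list and 1 gene of another are not reported here. Named by rule were the 10 genes, up to 4 called genes per list with the smallest p, or its 2 most abundant where none was called, the genes of the 4 ratios, and the 3 genes most like Piezo1; the 3 most opposite and others from the lists were chosen after their values were seen. All 10 genes matched the RefSeq promoter table (250 bases before to 50 after each of 14 start sites). Fibroblast markers summed to 1.95 to 3.51 CPM on smooth and 0.682 to 4.36 CPM on structured PEEK, endothelial markers to 4.00 to 5.48 and 2.73 to 5.81 CPM.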

Additional observations from a re-analysis of the deposited data

Results flagged for a closer look

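Among 62 groups of 4 libraries checked for a library far from the others, of which chance gives about 1 in 20, 2 were found. Cnn2 was at 2.17 CPM in structured replicate 2, against 1.6 to 1.69 CPM in the other structured libraries. Itpr3 was at 205 CPM in smooth replicate 1, against 219 to 222 CPM in the other smooth libraries, and still above every structured library.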

How the results depend on the processing

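Piezo1 kept its call in 22 of 25 alternatives, with log2 fold changes of -0.27 to -0.11 over all 25. The number of genes called over the whole table moved more: 189 with no filter, 1375 with DESeq2, 350, 348 and 338 with limma on log2 FPKM plus 0.5, 0.1 and 1, 94 with 0.5 and no filter, 186 without the 3 libraries high in hepatocyte transcripts, and 88 (without structured 4) to 597 (without structured 3) with 1 library left out. It was 240, 166 and 219 on leaving out smooth 2, 3 or 4, and 306 and 125 on leaving out structured 1 or 2. The share of calls that were lower was 73.2%, against 61.6% with DESeq2, 54.2% with the GC and length trend removed, 59.3% with length alone and 58.5% with FPKM and no filter. Of the 10 genes, 0 were called with the trend removed, with the replicate block and trend removal, or without those 3 libraries.

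With the replicate number as a block, 499 genes were called and the Piezo1 adjusted p was 0.018; with the block and trend removal, 238 genes and 0.171. Same-numbered libraries did not deviate together (correlations -0.062, 0.076, -0.0045 and -0.16). A weak shared effect could give such values too, so they do not decide whether the numbers pair libraries, and the labels do not say.

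Reversals were all of uncalled values. The Lats2 to Lats1 difference was 0.0050 with 0.5 added, and -0.10 to 0.076 with 1 library left out; the Lmna to Lmnb1 difference was then -0.041 to 0.051. With the trend removed, without and with the block, Trpv2 was at 0.0027 and 0.0031 and Myof at 0.022 and 0.021 (0.021 with length alone); Gadd45b was at 0.012 with GC alone. Without the 3 libraries Cnn2 was at 0.062, Lmna at -0.037 and Lmnb1 at -0.060. With 1 library left out, Trpm7 ran from -0.0059 to 0.056, Cnn2 from -0.14 to 0.13, Gadd45b from -0.076 to 0.021, Myof from -0.071 to 0.0053, Nf2 from -0.012 to 0.020, Lmna from -0.0027 to 0.083 and Lmnb1 from -0.0036 to 0.067. The cause was not tested. Depth limits Amotl2, Cnn2, Yap1 and Piezo2.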
